A study of Mus musculus with 550 samples.

Results

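Naive pluripotency transcription factors were followed in single cells of mouse embryoid bodies (EBs). The group held 10 genes chosen by name, Zfp42, Esrrb, Tfcp2l1, Tbx3, Klf2, Klf4, Klf5, Prdm14, Nr0b1 and Nr5a2, of 55228 gene names in the count table. Each gene had reads at both days in all 3 genotypes. They were read in all single cells with at least 50000 assigned reads, at least 2000 detected genes and at most 50% of reads from mitochondrial genes, which left 486 of 550 cells.

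The cells came from E14 mouse embryonic stem cells (ESCs) that were wild type (WT), Dnmt3a-/- (3AKO) or Dnmt3b-/- (3BKO), each knockout lacking 1 of the enzymes that place new DNA methylation. All 3 genotypes were differentiated as EBs without the cytokine LIF, and cells were sorted at day 3 and day 9 for Smart-seq2, which reads full-length cDNA. Per the methods, EBs were pooled, and mutant cells came from more than 1 clone, but the labels do not tell clones apart. Each genotype at each day was therefore 1 sample, no test was possible, and the 2 library batches (plate columns 1 to 8 and 9 to 12) are given as the only check on each value.

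The naive state is the ground state of ESCs and of the preimplantation epiblast. It is held by a network of transcription factors that bind one another's genes together with Oct4, Sox2 and Nanog, and that are fed by LIF through Stat3 and by relief from the repressor Tcf7l1. The factors are normally turned down in sequence as cells pass to the formative and primed epiblast and then to the germ layers.

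Promoter sequence was on hand for 7 of the 10 genes from RefSeq (GRCm38.p6). The 250 bases before the transcription start are shown for Zfp42 and Klf4, which were both higher in 3BKO cells at day 9, and for Tfcp2l1, which did not meet the call. Capitals mark CpG dinucleotides, the bases that the deleted enzymes methylate.
Zfp42, chr8:43307010-43307259, minus strand: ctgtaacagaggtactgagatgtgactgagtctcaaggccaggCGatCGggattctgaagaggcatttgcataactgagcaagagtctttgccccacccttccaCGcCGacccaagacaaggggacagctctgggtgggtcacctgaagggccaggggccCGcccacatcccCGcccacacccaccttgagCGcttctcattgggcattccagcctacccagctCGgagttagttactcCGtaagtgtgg
Klf4, chr4:55532476-55532725, minus strand: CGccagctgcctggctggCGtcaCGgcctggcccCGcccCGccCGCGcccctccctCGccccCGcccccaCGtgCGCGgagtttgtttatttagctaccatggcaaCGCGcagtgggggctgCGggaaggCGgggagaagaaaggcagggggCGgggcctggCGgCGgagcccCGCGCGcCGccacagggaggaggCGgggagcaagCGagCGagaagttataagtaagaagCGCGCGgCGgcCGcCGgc
Tfcp2l1, chr1:118627695-118627944, plus strand: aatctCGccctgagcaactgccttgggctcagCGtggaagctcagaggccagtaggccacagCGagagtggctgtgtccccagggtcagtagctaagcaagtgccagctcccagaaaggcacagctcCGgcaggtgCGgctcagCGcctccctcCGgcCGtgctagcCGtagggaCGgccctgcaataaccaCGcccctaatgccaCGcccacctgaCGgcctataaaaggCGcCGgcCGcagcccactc
These windows held 9 CpG dinucleotides for Zfp42, 32 for Klf4 and 16 for Tfcp2l1, against a median of 6 and quartiles of 2 and 16 over 32851 promoters of the same length. The 9 promoters of members ranged from 2, at 1 of 2 starts of Nr5a2, to 32. The octamer ATTTGCAT, the element bound by Oct4, was searched on both strands and lay in the Zfp42 promoter alone among these 9, from base 65 of the window. It occurred in 1.601% of all promoters. The GC box GGGCGG was in 3 of the 9 promoters (Zfp42, Klf2 and Klf4) and in 32.7% of all. DNA methylation was not analysed here.

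The kept cells had a median of 263902 reads. Kept cells of 3BKO batch 2 at day 9 were deeper, with a median of 692321 reads, and 67 of 93 3BKO cells passed the filter at day 9 against 89 of 91 WT and 88 of 93 3AKO cells. The targeted genes matched the labels at day 9: Dnmt3a was at 25.2 CPM (reads of the gene per 1000000 reads of its group or library) in 3AKO against 166 in WT, and Dnmt3b at 16.4 in 3BKO against 167. At day 3 they went against the labels of both mutant libraries of batch 2. There Dnmt3a was at 334 CPM in the library labelled 3AKO and at 12.8 in that labelled 3BKO. Day 3 mutant values are therefore given by library and label only. All 4 core pluripotency genes were read in at least 20% of cells of each group, whereas 0 of 10 primitive or visceral endoderm markers were. Each day 9 genotype sat on a plate of its own, so genotype and plate cannot be told apart. Intervals are exact 95% intervals. Those of reads cover only counting error, as amplified reads carried no molecular tags, and those of shares only the sampling of cells.

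At day 9, 5 of the 10 factors were higher in 3BKO than in WT cells and none was lower. A gene was called when at least 20% of the cells of 1 of the groups had a read in every batch and its log2 ratio of CPM + 1 was 1 or more in size, with the same sign, in both batches. By this rule 2.86% of 9235 genes were called higher and 4.98% lower. The median log2 ratio of the 10 members was 1.22, against -0.08 over all detected genes. Both 3BKO batches lay above all 10 other libraries of the experiment for the same 5 genes, Zfp42, Tbx3, Klf4, Klf5 and Prdm14, which held for 5.75% of genes.

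**Figure D1:**
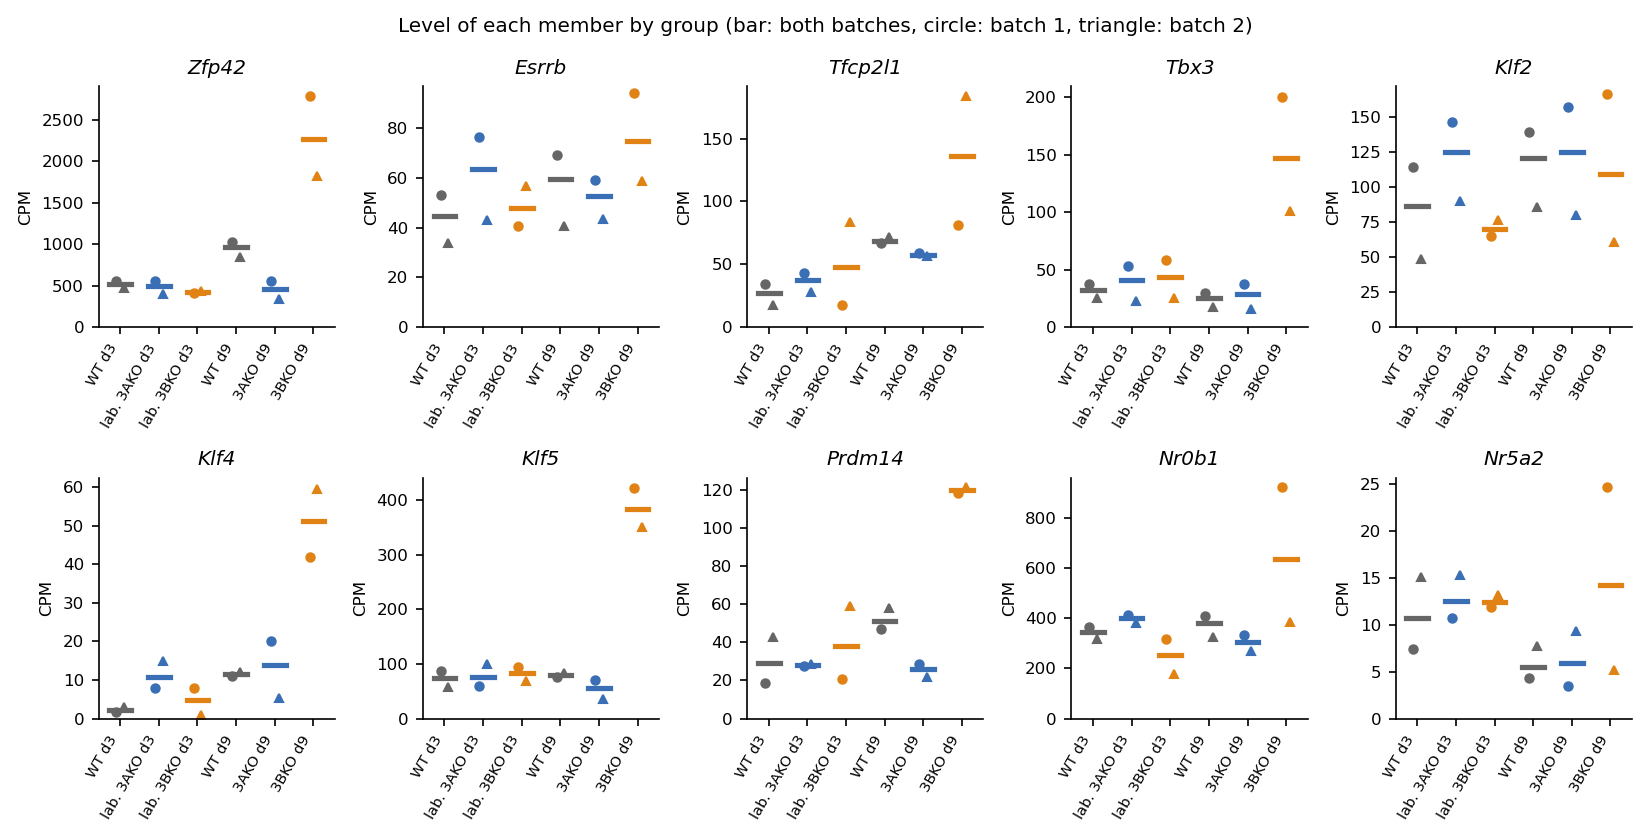
Level of each member in CPM (linear axis from 0 in each panel) in the 6 groups, as bars for both batches together, circles for batch 1 and triangles for batch 2. For Zfp42, Tbx3, Klf4, Klf5 and Prdm14 both 3BKO day 9 points lie above all others, while the Esrrb and Klf2 points of that group overlap those of the rest.

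Zfp42 (Rex1; chr8:43295063-43306980, GRCm38, minus strand), a zinc finger protein long used to report the naive state, had the highest level of the 10. At day 9 it was at 1023 CPM in WT batch 1 and 849 in batch 2, at 551 and 336 in 3AKO, and at 2789 and 1820 in 3BKO. The batches of the 3 genotypes did not overlap, with 3BKO highest and 3AKO lowest. Over both batches the 3BKO level was 2.36-fold that of WT (log2 ratio 1.24; 1.45 and 1.10 by batch). A read of Zfp42 was found in all 67 3BKO cells and in 77.5% of WT cells (67.5 to 85.7%) once each cell was thinned to 50000 reads. Part of its sequence is shared with the processed pseudogene Zfp42-ps1 on chromosome 15, which matched a Zfp42 transcript at 98.1% identity over 266 bases and took 8.03 to 8.75% of the reads of both genes in 3BKO and WT. With both counted together the log2 ratio was 1.22.

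Tbx3 (chr5:119670669-119684724, plus strand), a T-box factor that sustains self-renewal, was the member with the largest ratio. It stood at 29.5 and 17.3 CPM in the WT batches, at 37.2 and 15.9 in 3AKO and at 201 and 101 in 3BKO. WT and 3AKO overlapped, and 3BKO lay above both. The ratio to WT was 5.82-fold (log2 ratio 2.49; 2.73 and 2.48 by batch). Cells with a read made up 71.6% of 3BKO and 20.2% of WT, a difference of 51.4 percentage points (35.6 to 64.4). Of its exon bases 1.74% overlap the antisense gene Tbx3os1, and the sources used here do not say if counting was by strand.

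Klf4 (chr4:55527143-55532466, minus strand) and Klf5 (chr14:99298691-99315036, plus strand) are Krüppel-like factors with overlapping targets, and Klf4 is a direct target of LIF and Stat3. Klf5 was at 76.6 and 84.4 CPM in WT and at 423 and 352 in 3BKO, 4.85-fold higher over both batches (log2 ratio 2.26). It had a read in 98.5% of 3BKO cells against 58.4% of WT cells. Klf4 was much lower throughout, at 11.1 and 12.1 CPM in WT and 41.7 and 59.5 in 3BKO, a 4.47-fold ratio (log2 ratio 2.07). Its share of cells was 43.3% against 15.7%, so most 3BKO cells showed no read of it at this depth. One cell gave 20.1% of the Klf4 reads of 3BKO.

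Prdm14 (chr1:13113457-13127163, minus strand), a PR-domain protein that represses FGF signalling and de novo methyltransferase genes, was at 47.2 and 58.2 CPM in WT and at 118 and 121 in 3BKO. The ratio was 2.35-fold (log2 ratio 1.22), with 1.31 and 1.05 by batch, the latter just inside the threshold. The shares of cells lay closer together than for Tbx3 or Klf5, at 31.5% in WT and 49.3% in 3BKO (difference 17.8 points, 1.38 to 33.5). With the mean of single-cell CPM, or with a pseudocount of 10 CPM, it no longer met the call. Cells with a read had a median of 128 CPM in WT and 162 CPM in 3BKO.

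The other 5 factors did not meet the call. Nr0b1 (Dax1), an orphan nuclear receptor without the usual DNA-binding domain, was at 408 and 324 CPM in WT and at 923 and 386 in 3BKO (log2 ratios 1.17 and 0.25). Tfcp2l1, a CP2-family factor downstream of LIF, showed the reverse order of batches, at 66.6 and 71.4 in WT against 81 and 184 in 3BKO (0.28 and 1.35). For both genes each 3BKO batch exceeded its WT batch but only 1 did so by 2-fold. Nr5a2 (Lrh1), a nuclear receptor that binds the Oct4 promoter, had opposite signs, 2.27 in batch 1 and -0.49 in batch 2, on levels of 24.6 and 5.23 CPM in 3BKO.

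Esrrb, the orphan receptor held down by Tcf7l1, was at 69.2 and 40.8 CPM in WT and at 94.0 and 58.7 in 3BKO. Its log2 ratio was 0.33 over both batches and 0.44 and 0.51 within them. The pooled value lay outside both because batch 2 held 16249575 of the 30287278 reads of 3BKO but 11953550 of the 34821361 of WT. Klf2, the Krüppel-like factor that acts beside Klf4 and Klf5, was at 139 and 85.7 CPM in WT and at 166 and 60.7 in 3BKO, with ratios of opposite sign (0.25 and -0.49). The Krüppel-like factors thus differed among themselves: Klf4 and Klf5 met the call and Klf2 did not.

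**Figure D2:**
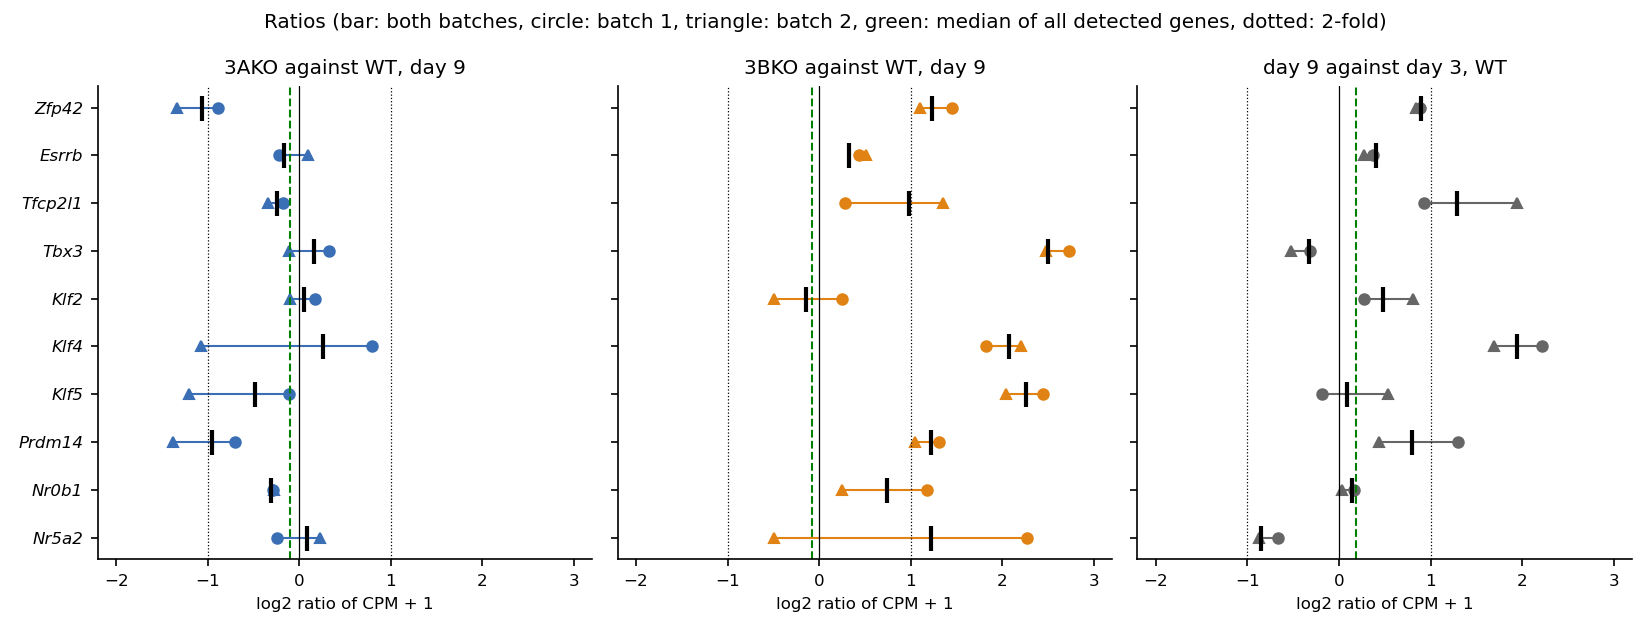
Log2 ratios of CPM + 1 for the 10 members in 3AKO against WT at day 9, 3BKO against WT at day 9 and WT at day 9 against day 3 (black bar both batches, circle batch 1, triangle batch 2, green line median of all detected genes, dotted lines 2-fold). In the middle panel Zfp42, Tbx3, Klf4, Klf5 and Prdm14 have both batches beyond 1, and in the left panel Zfp42 and Prdm14 have the lowest pooled ratios.

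In 3AKO cells at day 9 none of the 10 factors met the call, against 1.07% of 9201 genes called higher and 1.59% called lower. Klf4 was read in too few cells to be counted. Zfp42 came closest, at 461 CPM over both batches against 963 in WT, with log2 ratios of -0.89 in batch 1 and -1.34 in batch 2. It met the call as lower with a stricter filter on cells and when the batches were pooled. Prdm14 was next (25.8 against 51 CPM, -0.70 and -1.38), and its share of cells was 18.2% against 31.5%, a difference of -13.3 points (-26.3 to 0.22). Klf5 was at 56.5 against 79.3 CPM and Nr0b1 at 306 against 380. The other detected members lay between -0.24 for Tfcp2l1 and 0.16 for Tbx3, beside a median of -0.10 for all detected genes. The 3AKO and 3BKO ratios share the WT cells.

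Set directly against 3AKO, 3BKO was higher for Zfp42 (log2 ratio 2.29), Tbx3 (2.34), Klf4 (1.81), Klf5 (2.75) and Prdm14 (2.17), and for none was it lower. The rule called 4.56% of 9152 genes higher and 4.91% lower. Klf4 passed narrowly in batch 1, where its ratio was 1.03 and where it no longer passed with a pseudocount of 10 CPM, and by much more in batch 2 (3.28), where 3AKO stood at 5.25 CPM. Esrrb (0.50) and Klf2 (-0.19) were again the members nearest to 0.

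In WT cells none of the 10 factors met the call between day 3 and day 9. Klf4 was read in too few cells for a call, although its ratio passed the threshold in both batches (log2 ratios 2.22 and 1.69). It went from 2.232 CPM, on 44 reads, at day 3 to 11.46 CPM at day 9. Zfp42 was at 552 and 473 CPM at day 3 and 1023 and 849 at day 9, just under the threshold in both batches (log2 ratios 0.89 and 0.84). Tfcp2l1 went from 34.6 and 17.8 to 66.6 and 71.4 CPM (0.93 and 1.94), and Prdm14 from 18.6 and 42.7 to 47.2 and 58.2 (1.30 and 0.44). Tbx3 was slightly lower at day 9 (25.3 against 32.1 CPM), as was Nr5a2 (5.51 against 10.8). The rule called 5.25% of 10162 genes higher and 2.19% lower, and the median gene had a log2 ratio of 0.19, itself close to 0 when TMM factors were used (0.03). That scaling turned the split of calls from 533 higher and 223 lower to 308 and 387.

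The share of cells with a read of Zfp42 was lower at day 9, at 77.5% of WT cells against 94.9% at day 3, a difference of -17.4 points (-28.1 to -6.39). Nr0b1 was read in 84.8% of cells at day 3 and 64.04% at day 9, and Esrrb in 63.3 and 44.9%. The difference had an interval below 0 for these 3 genes and for Tbx3 (39.2 to 20.2%), and included 0 for the other 6. These intervals cover the sampling of cells within single samples and are not a test. Fewer cells with a read was the rule over all genes between these groups: a thinned WT cell had a median of 5511 genes at day 3 and 4506 at day 9. Of 8508 genes read in at least 20% of cells, 36.9% had an interval below 0, with a median difference of -9.60 points, so the count of members is near the background. In cells with a read the median level was higher at day 9: 900 against 529 CPM for Zfp42, 439 against 348 for Nr0b1 and 86.03 against 50.9 for Esrrb. Klf5 (69.1 at day 9 against 76.3 at day 3) and Nr5a2 (22.86 against 23.45) went the other way. This median was not taken over all genes, so no background is given for it.

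**Figure D3:**
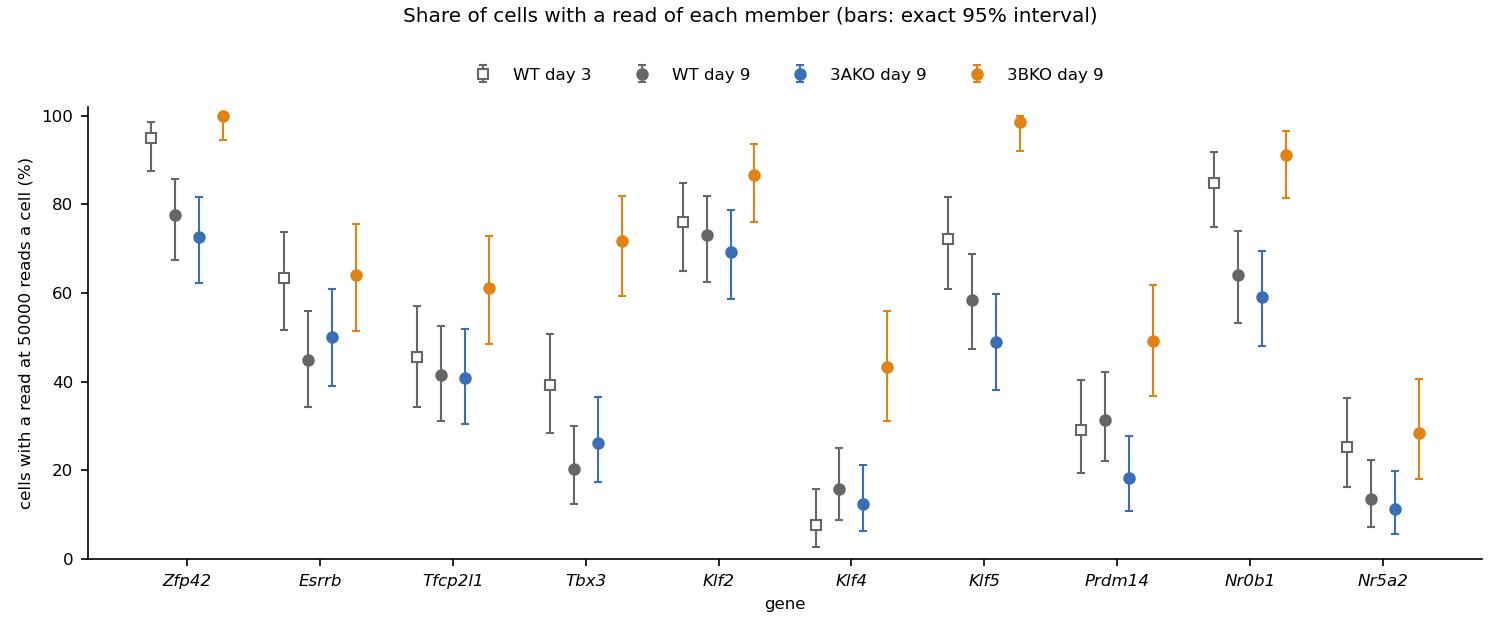
Share of cells (percent) with at least 1 read of each member after thinning to 50000 reads, in WT at day 3 and in the 3 genotypes at day 9, with exact 95% intervals as bars. The 3BKO point is the highest of the day 9 points for each of the 10 genes. Over 7828 genes, 44.8% had a higher share in 3BKO than in WT at day 9. The WT day 9 point lies below the WT day 3 point for all but Klf4 and Prdm14, as it does for 79.2% of 8508 genes.

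At day 3 the members' median ratio to WT of the same batch lay within 0.41 of 0 in each mutant library. In batch 1 the median log2 ratio of the members was 0.41 in the library labelled 3AKO and -0.04 in that labelled 3BKO. In batch 2, where the labels are in doubt, it was 0.31 for label 3AKO and 0.13 for label 3BKO. The largest single values were in Tfcp2l1 (2.17 in label 3BKO batch 2, where 1 cell gave 41.9% of the reads) and Klf4, which rested on 44 reads in all WT cells. In batch 1 at day 3 Dnmt3b stood at 167 CPM in label 3BKO, 261 in label 3AKO and 600 in WT. In 3BKO of batch 1 at day 9 Dnmt3b was at 15.9 CPM, so the Dnmt3b level does not settle the day 3 label. Dnmt3a went with the batch 1 labels at day 3, at 25.8 CPM in label 3AKO, 587 in label 3BKO and 455 in WT. In batch 1 alone, 9 of the 10 factors were at least 2-fold higher in 3BKO at day 9 than in label 3BKO at day 3. Over all genes this held for 12.7% of 10542. The values of the members ran from 1.00 for Nr5a2 to 2.77 for Zfp42, with a median of 1.95. The matching median was 0.33 in WT and 0.02 in 3AKO.

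Counted cell by cell, 3BKO cells at day 9 carried more of the factors at once. At 50000 reads a cell, 60 of 67 3BKO cells (89.6%, 79.7 to 95.7%) had a read of at least 5 of the 10, against 51 of 89 WT cells (57.3%, 46.4 to 67.7%) and 48 of 88 3AKO cells (54.5%, 43.6 to 65.2%). The difference from WT was 32.2 points (17.9 to 44.8), and 30.8 and 35.3 points in the batches. At full depth the shares were 94% in 3BKO, 62.9% in WT and 59.1% in 3AKO. Without any filter on cells the shares were 68.8% in 3BKO, 53.85% in WT and 51.6% in 3AKO, a much smaller gap between 3BKO and WT. In kept cells at 50000 reads the 3AKO and WT shares differed by -2.76 points (-17.9 to 12.5). That interval leaves room for a difference in either direction. WT cells at day 3 had a share of 73.4% (62.3 to 82.7%).

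Cells with hardly any of the factors made up part of this difference. At most 1 member was read in 19 of 89 WT cells (21.3%) and 21 of 88 3AKO cells (23.9%) at day 9, and in 7 of 79 WT cells at day 3. None of the 67 kept 3BKO cells was of this kind, a count that still permits a share of 4.48% by the 3-count limit and of 5.36% by the exact interval. Both limits cover kept cells only, and 67 of 93 3BKO cells were kept against 89 of 91 WT cells. Thinned cells of 3BKO and WT at day 9 had like numbers of genes with a read, with medians of 4482 and 4506. The median cell had 7 members in 3BKO and 5 in WT and 3AKO.

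**Figure D4:**
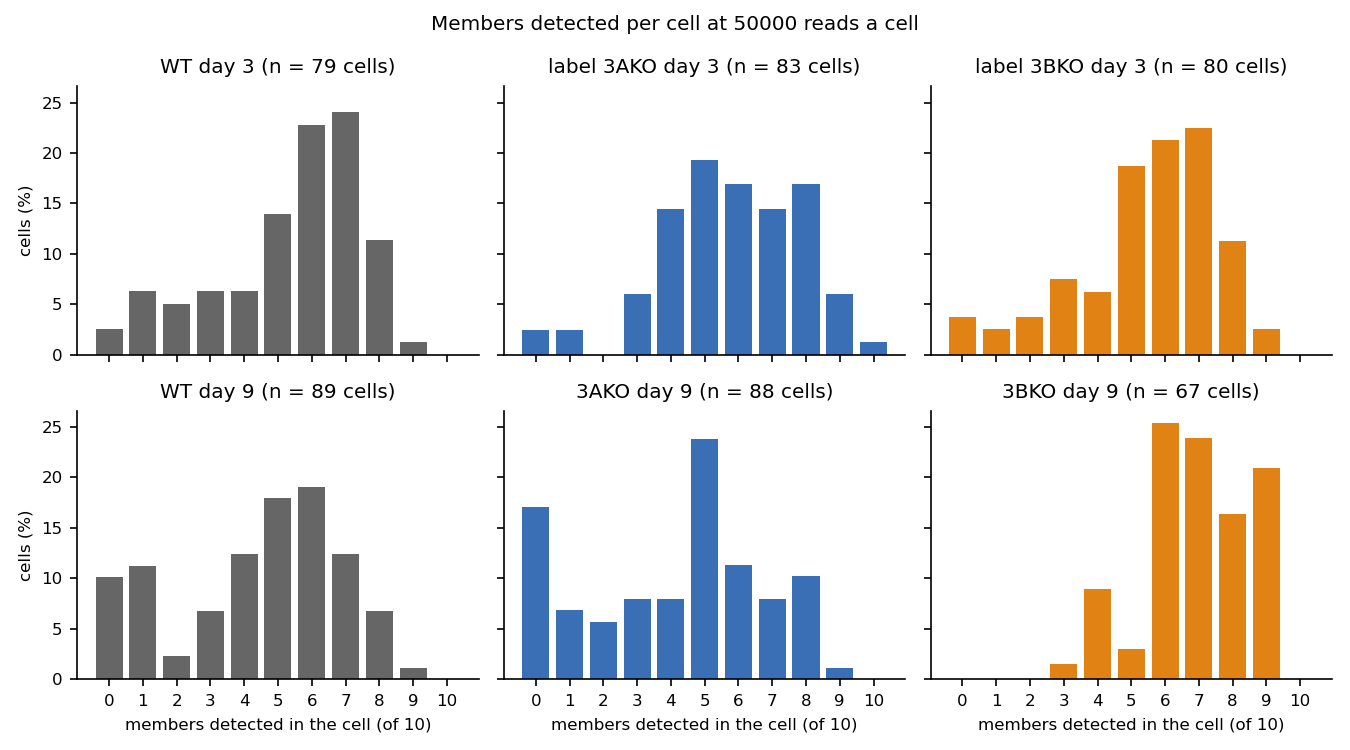
Share of cells (percent) by the number of members with a read at 50000 reads a cell, for each of the 6 groups. WT and 3AKO at day 9 have cells at 0 and 1 that are missing from 3BKO, whose cells run from 3 to 9 members.

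Correlations between the factors from cell to cell were taken over the 486 cells on log2(CPM + 1) after each library's mean was removed. They describe cells that share plates and amplification and carry no p-value. All 45 pairs were above 0 over all cells, with a median r of 0.26, where 68.6% of all pairs of 8805 other genes were above 0 with a median of 0.03. Zfp42 and Klf2 were the closest (r = 0.66), followed by Zfp42 with Nr0b1 (0.58) and with Klf5 (0.53). Klf4 with Nr5a2 was the weakest (0.04), on genes read in 21.4 and 33.7% of cells. Within 3BKO at day 9, 10 of the 45 pairs were below 0, as was 1 in WT and 0 in 3AKO. Of all pairs of the 8805 other genes, 56.99% were above 0 in 3BKO, 57.62% in WT and 59.85% in 3AKO. At day 9 the median over the 45 pairs was 0.29 in WT, 0.33 in 3AKO and 0.15 in 3BKO. Over all pairs of other genes it was 0.02, 0.03 and 0.02, so the members stayed above this background in each genotype. Zfp42 with Klf2 stood at 0.73 in WT, 0.72 in 3AKO and 0.16 in 3BKO. Correlation of a member with the depth of the cell lay between -0.05 for Klf4 and 0.11 for Prdm14.

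Among 8805 other genes read in at least 20% of cells, those nearest to Zfp42 were its pseudogene Zfp42-ps1 (r = 0.92), Dppa5a (0.70) and Spp1 (0.68). Dppa5a is an RNA-binding protein of ESCs and Spp1 is osteopontin. Tdh, the threonine dehydrogenase on which mouse ESCs depend, was nearest to Esrrb (0.47) and second after the pseudogene for Nr0b1 (0.52). Jam2 was nearest to Klf4 (0.25) and Prdm14 (0.33), and Nanog was the third for Prdm14 (0.31). The nearest genes of Tfcp2l1, Klf5 and Klf2 were again Zfp42-ps1 (0.47, 0.50 and 0.62), that of Tbx3 was Mylpf (0.42) and that of Nr5a2 was Zdhhc18 (0.21). Zfp42-ps1 followed Zfp42, which as a member was left out of this search. Its values therefore add little to those of Zfp42 itself with Tfcp2l1, Klf5 and Klf2 (0.47, 0.53 and 0.66).

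Partners and inputs of the network were read from fixed lists in the same contrast of 3BKO with WT at day 9. None of the 4 core genes met the call, with Sall4 at a log2 ratio of 1.00, Sox2 at 0.92, Nanog at 0.84 and Pou5f1 (Oct4) at 0.20. All 4 were above WT in both batches. Of 15 further genes tied to the naive state, 13 were detected, and Dppa2 (1.505) and Pecam1 (1.82) were higher and none lower. The lowest of these 15 was Gbx2 (-1.84), which was read in too few cells for a call. A list of inputs held LIF pathway genes and, from the BMP pathway, Bmp4 and its targets Id1 and Id3. Of its 7 detected genes 0 met the call in either direction, with the receptor Lifr highest (0.11) and Id3 lowest (-1.65). Stat3 was at 10.99 against 22.5 CPM (-0.97). Of 9 detected genes on a list of repressors and exit regulators none met the call. The highest was Folr1 (1.11), which encodes a folate receptor and not such a regulator, followed by Rbpj (0.79) and Tcf7l1 (0.72), and the lowest was Mbd3 (-0.49).

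Genes on the list of the formative and primed epiblast did not all move the same way. Of 6 detected, Fgf5 (-4.32), Pim2 (-4.69) and Lef1 (-1.48) were lower in 3BKO, and Dnmt3l, the cofactor of the de novo methyltransferases, was higher (2.26). The study describes ESCs as high in DNMT3L, so Dnmt3l is not a marker of the primed state alone. Otx2, an early driver of the exit from the naive state, was at 0.79. In 3AKO against WT, Dnmt3l (1.42) was the only gene of these 5 lists to be called.

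Several markers of other cell states differed between 3BKO and WT at day 9. Zscan4c, Zscan4d and Zscan4f, near-identical genes that mark a 2-cell-like state, were read in 13 of 67 3BKO cells at 50000 reads a cell, in 1 of 88 3AKO cells and in 0 of 89 WT cells (3.37% by the 3-count limit, 4.06% by the exact interval). Their summed level in 3BKO was 499.5 CPM, 69.3% of it from 3 cells. Without all cells that had a read of these genes, Tbx3, Klf4, Klf5 and Prdm14 still met the call against WT. Zfp42 then had a log2 ratio of 1.17 but no longer reached 1 in each batch, and Klf4 had 1.51. Of 6 germ cell genes, Dazl, Stra8 and Tfap2c were higher in 3BKO than in WT, and the summed level of the list was 469 CPM against 119. Dazl was as high in 3AKO (81.2 CPM, against 82.2 in 3BKO and 12.8 in WT) and was called there too. Nanos3 was read in too few cells for a call and had a log2 ratio of -2.03 in 3BKO. Endoderm markers summed to 13.01 CPM in 3BKO and 119 in WT, where 1 cell gave 63.6%, with Foxa2 and Ttr at 0 in 3BKO. Of the 8 mesoderm and primitive streak markers, 5 were at 0 in 3BKO, T among them. The list summed to 30.7 CPM in 3BKO, of which Eomes gave 30.5, and to 39.2 in WT, where Eomes was at 12.1. The log2 ratios of Eomes were 0.01 and 2.33 by batch. Of the 8 neural markers 3 were detected, and Sox11 (-2.04) and Crabp2 (-2.01) were called lower in 3BKO, while Tubb3 (0.43) gave 162 of the 175 CPM of the list. Of the 8 trophoblast markers only Tfap2c was detected, which the germ cell list holds too and which gave 92.6 of 118 CPM. The part of these cells in the members' ratios was not tested beyond the counts above.

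Scaled by exon length (GENCODE vM21, GRCm38), the order of the factors in WT at day 9 ran from Zfp42 at 512 CPM per kilobase over Nr0b1 at 210 and Klf2 at 65.3 to Nr5a2 at 0.93. The batch ranges of these 4 genes did not overlap. Prdm14 (19.9, batches 18.4 to 22.7) and Klf5 (15.2, 14.7 to 16.2) also lay apart, whereas Klf4 (3.76) and Tbx3 (3.82) overlapped. In 3BKO at day 9 Klf5 stood at 73.95, above Klf2 at 59.3, although the Klf2 batches ran from 32.9 to 89.9 and spanned it. Tbx3 stood at 22.2, above Esrrb at 12.4, whose batches (9.70 to 15.5) just overlapped those of Tbx3 (15.2 to 30.3).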

How the data were processed

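Single cells were amplified with a modified Smart-seq2 protocol and sequenced as 75-base single-end reads. The authors trimmed reads with Trim Galore 0.5.0, aligned them to GRCm38 with STAR 2.7.1a and assigned them to genes with featureCounts 1.6.1, and deposited raw read counts per gene and cell with no normalization. The 26 columns that belong to no sample (8 empty and 18 mini-bulk wells) were not used. Groups came from the labels.

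For each group or library, reads of a gene were added up across kept cells and scaled by the library's summed total to CPM. Log2 ratios used a pseudocount of 1 CPM, which understates changes of low genes. Sums have exact Poisson intervals and shares exact Clopper-Pearson intervals at 95%. Differences of 2 shares have Newcombe's interval built from the exact bounds. A count of 0 allows up to 3. Shares were read after thinning to 50000 reads (seed 1). Wells held 1 sorted cell each, no doublet caller was run, and no column was identical to another. Near-identical copies were sought with BLAST among GENCODE vM21 transcripts (95% identity over 75 bases), whose release is older than the one named in the study's methods. The authors left out reads that mapped to several places, and use of strand is not given in the sources used here. All 10 members are named, and nearest genes were the 3 with the highest r, without mitochondrial genes and unnamed models. Alternatives used TMM factors (edgeR 4.0.16) and median-ratio factors (DESeq2 1.42.0), among others. The members and lists were chosen with earlier results of these data known.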

Additional observations from a re-analysis of the deposited data

Results flagged for a closer look

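For 5 members the ratio to WT at day 9 had opposite signs in the 2 mutants, below 0 in both batches of 3AKO and above 0 in both batches of 3BKO. This order of signs was found in 609 of 8767 genes detected in both comparisons (6.95%) and in 5 of the 9 members detected in both. The difference between the mutants' ratios was not tested, and both use the same WT cells. The log2 ratio in 3BKO minus that in 3AKO was 2.75 for Klf5 (2.26 and -0.48), 2.29 for Zfp42 (1.24 and -1.06), 2.17 for Prdm14 (1.22 and -0.96), 1.22 for Tfcp2l1 (0.99 and -0.24) and 1.05 for Nr0b1 (0.74 and -0.31).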

How the results depend on the processing

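The number of members higher in 3BKO than in WT at day 9 lay between 4 and 6 under all alternatives, and none was called lower. Prdm14 dropped out with the mean of single-cell CPM and with a pseudocount of 10 CPM, Zfp42 dropped out without cells with a Zscan4 read (an alternative chosen after seeing the data), and Nr5a2 joined when the batches were pooled. Against 3AKO pooling raised the count from 5 to 8, Klf4 dropped out with a pseudocount of 10 CPM (4 left), and Nr0b1 joined with the mean of single-cell CPM, with thinned cells and at a log2 ratio of 0.5 (6 each). Members lower in 3AKO than in WT numbered 1 (Zfp42) with the stricter cell filter (100000 reads, 4000 genes, 25% mitochondrial) and with pooled batches, and 2 (Zfp42 and Prdm14) at a log2 ratio of 0.5. Members higher in WT at day 9 than at day 3 numbered 1 with the stricter filter (Prdm14), with the mean of single-cell CPM, with thinned cells and with pooled batches (Tfcp2l1 in all 3), 1 with detection in 10% of cells (Klf4), and 2 at a log2 ratio of 0.5 (Zfp42 and Tfcp2l1), where 1 was lower (Nr5a2). Below, shares of the day 3 mutant labels pool both batches, although the batch 2 labels are in doubt. The share of cells with at least 5 members moved by construction with the number required. With 6 required it was 59.5% (WT day 3), 55.4% (label 3AKO day 3), 57.5% (label 3BKO day 3), 39.3% (WT day 9) and 30.7% (3AKO day 9). With 4 it was 89.2% (label 3AKO day 3), 69.7% (WT day 9) and 98.5% (3BKO day 9). With 2 reads a member it was 55.7% (WT day 3), 59.04% (label 3AKO day 3), 60% (label 3BKO day 3) and 38.6% (3AKO day 9). Without a cell filter it was 64.8% (label 3BKO day 3) and 68.8% (3BKO day 9), and without thinning 85.5% (label 3AKO day 3). The causes of the other moves were not tested. Over all genes, 3BKO against WT gave 264 higher and 460 lower, 273 and 688 without the top cell of each gene, and 115 and 189 with a pseudocount of 10 CPM. Of 504 log2 ratios of members under alternatives 173 moved beyond their counting interval, and 43 of 300 shares moved beyond their interval for the sampling of cells. No paired analysis was possible because the groups are single samples and no result comes from a test. Klf4 and Nr5a2 had the fewest reads of the members in each group, which limits them most. In WT at day 9 Klf4 was read in 15.7% of thinned cells and 19.1% at full depth, and Nr5a2 in 13.5 and 22.5%.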
